A study of Mus musculus with 4 samples.

Results

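Imprinted genes are expressed mainly from the maternal or mainly from the paternal chromosome. The choice is written as DNA methylation in the germ line, at an imprinting control region, and is kept through the divisions that follow by maintenance methylation and by zinc finger proteins that hold repressors on the methylated copy. Many of these genes lie in clusters that share 1 control region, and many act on growth, with paternally expressed members such as Igf2 often promoting it and maternally expressed members such as Cdkn1c, Grb10 and Igf2r often restraining it. Some members are imprinted only in certain tissues, among them Ube3a in neurons and several genes of the Kcnq1 cluster in placenta.

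Day 6 embryoid bodies (EBs), the aggregates in which mouse embryonic stem cells (ESCs) differentiate without directing signals, were compared between WT and LSD1 KO cells by droplet single-cell RNA-seq, with 2 biological replicates of each genotype and 1 library per replicate. Both genotypes were V6.5 ESCs kept in medium with 2i and LIF, formed into EBs in hanging drops and cultured in serum medium for 6 days, and the LSD1 KO cells carried a CRISPR/Cas9 deletion of the promoter and first exon of Kdm1a, the gene of the histone demethylase LSD1. Mutant ESCs were picked as clones, and the number of clones behind these libraries was not given in the sources used here. The 36 imprinted genes described here are those of a list of named genes that were present as symbols among the 25209 genes of the count matrices. They fall into 16 imprinted domains, 8 of which have 1 member in the list, with 17 genes assigned to the maternal and 19 to the paternal allele from general knowledge. The counts do not separate the parental alleles and hold no methylation, so whether imprinting itself was kept or lost was not tested.

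The libraries held 72285943 to 75406512 unique molecular identifiers (UMIs, 1 per captured transcript). Cells are the barcodes that held 500 UMIs or more over 500 genes or more, 4393 and 6828 in the WT replicates and 5693 and 3045 in the LSD1 KO replicates, with medians of 11698, 9211, 11402 and 20304 UMIs per cell. Each pair of libraries shared 3 to 15 kept barcodes, at most 0.263% of the smaller library. Kdm1a was at 221 and 246 CPM (the UMIs of a gene relative to all UMIs of the library, scaled alike in every library) in the WT replicates and at 1.10 and 0.810 CPM in the LSD1 KO replicates (log2 fold change −7.92, standard error (SE) 0.181, adjusted p = 0.000131), although the 3′ tags counted lie outside the deleted part. For whole EBs the UMIs of all kept cells of a library were summed, CPM were scaled with edgeR's TMM factors, and adjusted p values are from edgeR's quasi-likelihood test with Benjamini-Hochberg adjustment over all 16953 genes tested. A gene passed the test at an adjusted p below 0.05. Log2 fold changes are LSD1 KO over WT, and values in pairs are given for replicate 1 and then replicate 2. With 2 libraries against 2, each p rests on the spread between these few libraries, and in summed counts fewer cells of a type and less RNA per cell cannot be told apart.

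Imprinted genes moved in both directions in LSD1 KO EBs. Of the 36, 35 could be tested, and 7 rose, 15 fell and 13 did not pass the test, so that 62.9% of those tested were called. Across all genes 44.2% were called, 22.6% higher and 21.6% lower. The libraries of the 2 genotypes did not overlap for 28 of the 35 and for 13139 of all 16953 genes. The median log2 fold change of the imprinted genes was −0.36, against −0.00088 for all genes. Of the 17 genes assigned to the maternal allele 1 rose and 10 fell, with a median of −0.75. Of the 18 tested genes assigned to the paternal allele 6 rose and 5 fell, with a median of 0.15. Whether each gene was imprinted in these cells was not tested, so these tallies do not show an effect on an allele. Genes of a domain are not independent, and the 4 falls of the Kcnq1 domain all count among the maternal ones. Scaling to library totals alone, without TMM factors, moved the median of all genes to 0.13 and the share of calls that were higher from 51.2% to 65.2%. Together the 36 genes took 0.633% and 0.454% of the kept UMIs in WT and 0.412% and 0.401% in LSD1 KO libraries.

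**Figure D1:**
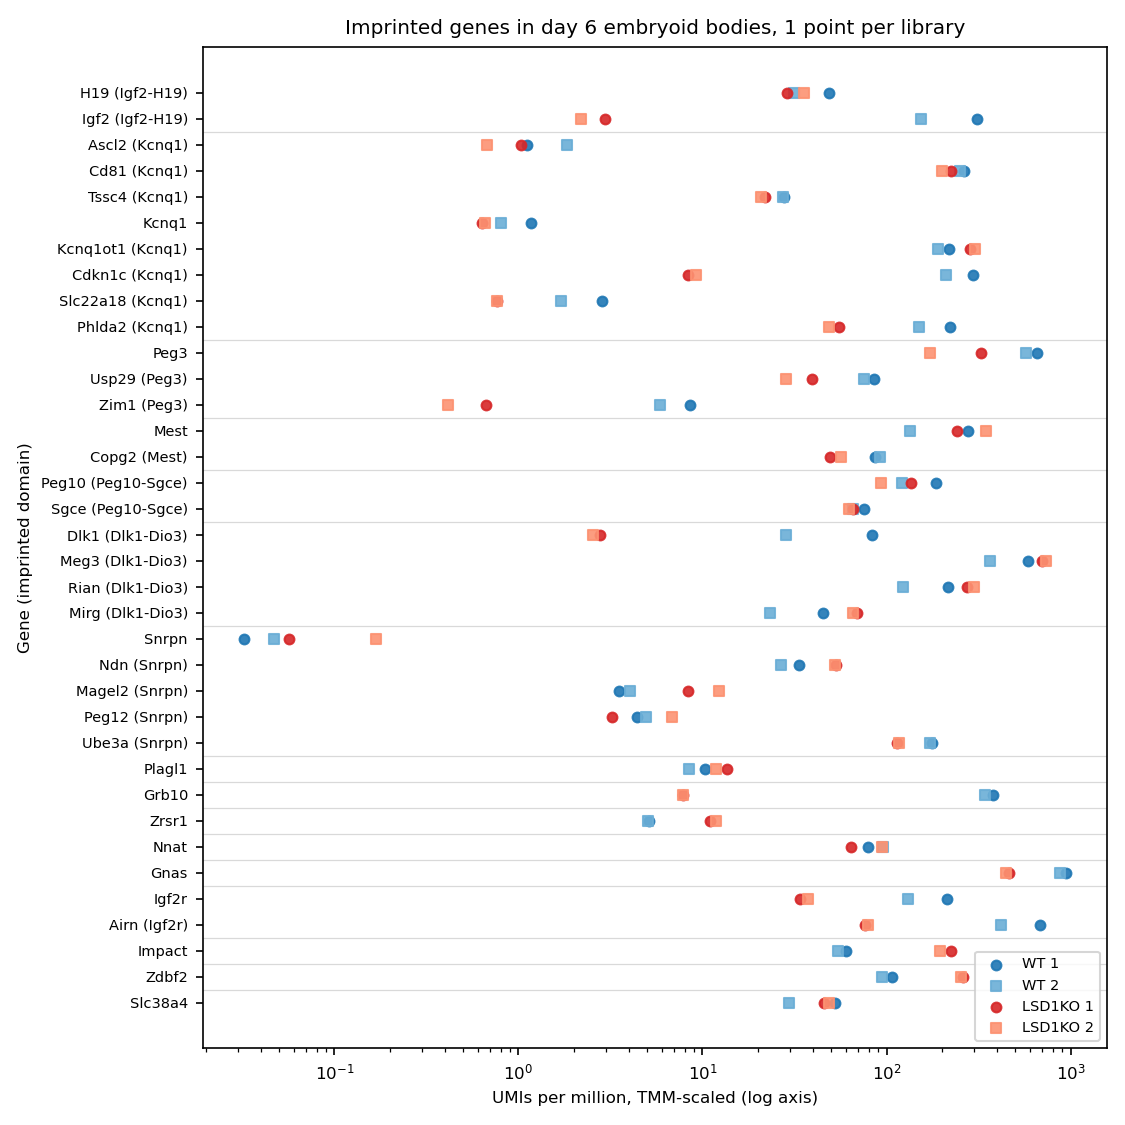
Level of each imprinted gene in whole EBs, in TMM-scaled CPM on a log axis, with 1 point per library and the genes grouped by domain. The LSD1 KO points of Grb10 lie at 7.83 and 7.87 CPM, far below the WT points at 381 and 342 CPM, while those of Impact lie at 224 and 195 CPM, above WT at 60.1 and 54.3 CPM.

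Igf2, the paternally expressed insulin-like growth factor on chromosome 7 of mm9 from 149836673 to 149852721, was at 310 and 153 CPM in WT and at 2.97 and 2.19 CPM in LSD1 KO. The genotypes did not overlap, and the log2 fold change was −6.48 (SE 0.432, adjusted p = 0.000681). H19, the maternally expressed non-coding RNA from 149761434 to 149764048 that shares enhancers with Igf2, was at 48.9 and 31.2 CPM in WT and at 28.8 and 35.6 CPM in LSD1 KO. Its replicates overlapped between genotypes, and its log2 fold change of −0.31 (SE 0.230) did not pass the test (adjusted p = 0.305). Without WT replicate 1 the log2 fold change of H19 was 0.05, and without WT replicate 2 it was −0.60 and passed the test (adjusted p = 0.0371), so no direction is given for H19 in whole EBs.

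Igf2r encodes the receptor that clears the IGF2 protein and is maternally expressed. It lies on chromosome 17 of mm9 from 12875272 to 12962530, and Airn, the paternal non-coding RNA whose transcription silences Igf2r on that chromosome copy, starts inside it on the other strand, the annotated genes sharing 28354 bases. Igf2r was at 214 and 131 CPM in WT and at 33.7 and 37.6 CPM in LSD1 KO, a log2 fold change of −2.27 (SE 0.242, adjusted p = 0.00197). Airn was at 678 and 419 CPM in WT and at 76.3 and 79.7 CPM in LSD1 KO, a log2 fold change of −2.81 (SE 0.242, adjusted p = 0.00113). Both genes of this maternal and paternal pair were thus lower in every LSD1 KO library than in every WT library, and the counting kept the strand. Across all genes, 6516 of 16953 were lower in this way.

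Grb10, an adaptor that dampens insulin and IGF receptor signalling, lies on chromosome 11 from 11830511 to 11938686. Its level was 381 and 342 CPM in WT and 7.83 and 7.87 CPM in LSD1 KO. The replicates of a genotype lay close together and the log2 fold change was −5.52 (SE 0.116, adjusted p = 0.000131). Cdkn1c, which encodes the cell cycle inhibitor p57 and lies on chromosome 7 from 150644255 to 150646955, was at 295 and 211 CPM in WT and at 8.32 and 9.17 CPM in LSD1 KO. Its log2 fold change was −4.85 (SE 0.202, adjusted p = 0.000398).

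Cdkn1c belongs to the Kcnq1 domain, where 1 of 8 members rose and 4 fell. Phlda2, a restrainer of placental growth, was at 221 and 149 CPM in WT and at 54.8 and 48.6 CPM in LSD1 KO (log2 fold change −1.84, SE 0.200, adjusted p = 0.0021). Kcnq1ot1, the paternal non-coding RNA that silences the cluster in cis, was the member that rose, from 220 and 190 CPM in WT to 283 and 303 CPM in LSD1 KO (log2 fold change 0.52, SE 0.110, adjusted p = 0.0148). Kcnq1ot1 no longer passed the test without LSD1 KO replicate 1 (adjusted p = 0.053) or replicate 2 (adjusted p = 0.0985). Tssc4 was at 27.7 and 27.5 CPM in WT and at 21.9 and 20.9 CPM in LSD1 KO (log2 fold change −0.36, adjusted p = 0.0284), a call that was lost with library totals alone (adjusted p = 0.126) and when any 1 library was left out (adjusted p = 0.079 to 0.152). The tetraspanin gene Cd81 was at 263 and 250.4 CPM in WT and at 223 and 201 CPM in LSD1 KO, with a log2 fold change of −0.28 that did not pass the test (adjusted p = 0.067). The transporter gene Slc22a18 fell from 2.83 and 1.70 CPM to 0.764 CPM in both LSD1 KO libraries (log2 fold change −1.56, adjusted p = 0.0141), but not when WT replicate 1 was left out (adjusted p = 0.0526). The channel gene Kcnq1 and the trophoblast factor gene Ascl2 stayed under 2 CPM in every library and did not pass the test.

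Of the 4 members in the Dlk1-Dio3 domain on chromosome 12, 1 rose and 1 fell. Dlk1, a paternally expressed transmembrane protein related to Notch ligands (110691033 to 110701546), fell from 83.5 and 28.3 CPM in WT to 2.79 and 2.54 CPM in LSD1 KO, a log2 fold change of −4.39 (SE 0.555, adjusted p = 0.00319). The 3 maternal non-coding RNAs downstream of it were higher in both LSD1 KO libraries than in both WT libraries. Across all genes, 6623 of 16953 were higher in this way. Meg3 (110779211 to 110809936) was at 588 and 366 CPM in WT and at 702 and 736 CPM in LSD1 KO, with a log2 fold change of 0.59 (SE 0.227, adjusted p = 0.0821). Rian was at 216 and 124 CPM in WT and at 272 and 298 CPM in LSD1 KO (0.75, SE 0.259, adjusted p = 0.0634). Of the trio, Mirg alone passed the test, with 45.0 and 23.3 CPM in WT and 68.7 and 65.7 CPM in LSD1 KO (0.98, SE 0.295, adjusted p = 0.0431). Meg3 and Rian also passed without WT replicate 1 (adjusted p = 0.0036 and 0.0033), without WT replicate 2 (adjusted p = 0.048 and 0.0306) and by DESeq2 (adjusted p = 0.0194 and 0.0083), whereas Mirg did not pass once either LSD1 KO library was left out (adjusted p = 0.0639 and 0.0552).

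All 3 members of the Peg3 domain on chromosome 7 fell. Peg3, a zinc finger protein gene (6656603 to 6683132), was at 653 and 573 CPM in WT and at 328 and 173 CPM in LSD1 KO (log2 fold change −1.29, SE 0.300, adjusted p = 0.0193), and lost its call without WT replicate 1 (adjusted p = 0.068). Usp29, which starts next to Peg3 on the other strand and belongs to the deubiquitinase family, was at 86.0 and 75.1 CPM in WT and at 39.1 and 28.5 CPM in LSD1 KO (−1.25, SE 0.170, adjusted p = 0.00394). The zinc finger gene Zim1, maternally expressed, was low throughout, with 8.52 and 5.87 CPM in WT and 0.665 and 0.413 CPM in LSD1 KO (−3.73, adjusted p = 0.00123).

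The paternal genes Mest, Peg10 and Sgce did not pass the test in whole EBs. Mest, a hydrolase-fold protein gene on chromosome 6 (30673547 to 30698457), was at 277 and 134 CPM in WT and at 240.5 and 348 CPM in LSD1 KO, so that the genotypes overlapped (log2 fold change 0.52, adjusted p = 0.284). Without WT replicate 1 Mest passed the test (adjusted p = 0.0265). Its neighbour Copg2, a coatomer subunit gene that shares 904 bases with Mest on the other strand, fell from 86.3 and 91.8 CPM to 49.6 and 56.2 CPM (−0.75, SE 0.0983, adjusted p = 0.00354). Peg10, derived from a retrotransposon and needed in placenta, was at 186 and 121 CPM in WT and at 136 and 93.1 CPM in LSD1 KO (−0.42, adjusted p = 0.231). The sarcoglycan gene Sgce was at 75.0 and 65.4 CPM in WT and at 66.1 and 62.4 CPM in LSD1 KO (−0.13, adjusted p = 0.338).

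In the Snrpn domain the MAGE family genes rose and the ubiquitin ligase gene Ube3a fell. Ndn was at 33.4 and 26.6 CPM in WT and at 53.0 and 52.6 CPM in LSD1 KO (log2 fold change 0.82, SE 0.128, adjusted p = 0.00583). Magel2 rose from 3.54 and 4.03 CPM to 8.36 and 12.3 CPM (1.45, SE 0.230, adjusted p = 0.00605). Ube3a was at 177 and 173 CPM in WT and at 114 and 116 CPM in LSD1 KO (−0.61, SE 0.0815, adjusted p = 0.00383). Peg12, related to the Wnt pathway protein FRAT, was at 4.40 and 4.91 CPM in WT and at 3.21 and 6.86 CPM in LSD1 KO and did not pass the test (adjusted p = 0.821). Snrpn stayed under 0.2 CPM in every library and could not be tested. It shares a transcript with Snurf on the same strand, so its count is uncertain.

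Among the genes that stand alone in the list, Impact and Zdbf2, both paternally expressed, rose most clearly. Impact, a regulator of translation that binds GCN1, was at 60.1 and 54.3 CPM in WT and at 224 and 195 CPM in LSD1 KO (log2 fold change 1.87, SE 0.112, adjusted p = 0.0006). Zdbf2, a zinc finger gene on chromosome 1 (63319839 to 63361150) that is linked to feeding and growth after birth, was at 107 and 93.9 CPM in WT and at 259.6 and 255 CPM in LSD1 KO (1.35, SE 0.102, adjusted p = 0.000845). Zrsr1, a splicing factor related gene, rose from 5.14 and 5.07 CPM to 11 and 11.8 CPM (1.16, SE 0.135, adjusted p = 0.00254). Gnas, which encodes the stimulatory G protein alpha subunit, fell from 943 and 871 CPM to 462 and 445 CPM (−1.0, SE 0.105, adjusted p = 0.00188). Plagl1, Nnat and Slc38a4 did not pass the test. The zinc finger gene Plagl1 was at 10.4 and 8.44 CPM in WT and at 13.5 and 11.8 CPM in LSD1 KO (0.43, adjusted p = 0.0771). The proteolipid gene Nnat was at 79.7 and 95.8 CPM in WT and at 64.5 and 94.3 CPM in LSD1 KO (−0.14, adjusted p = 0.58). The amino acid transporter gene Slc38a4 was at 52.7 and 29.4 CPM in WT and at 45.7 and 48.6 CPM in LSD1 KO (0.20, adjusted p = 0.567), and passed the test as higher without WT replicate 1 (adjusted p = 0.0133).

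**Figure D2:**
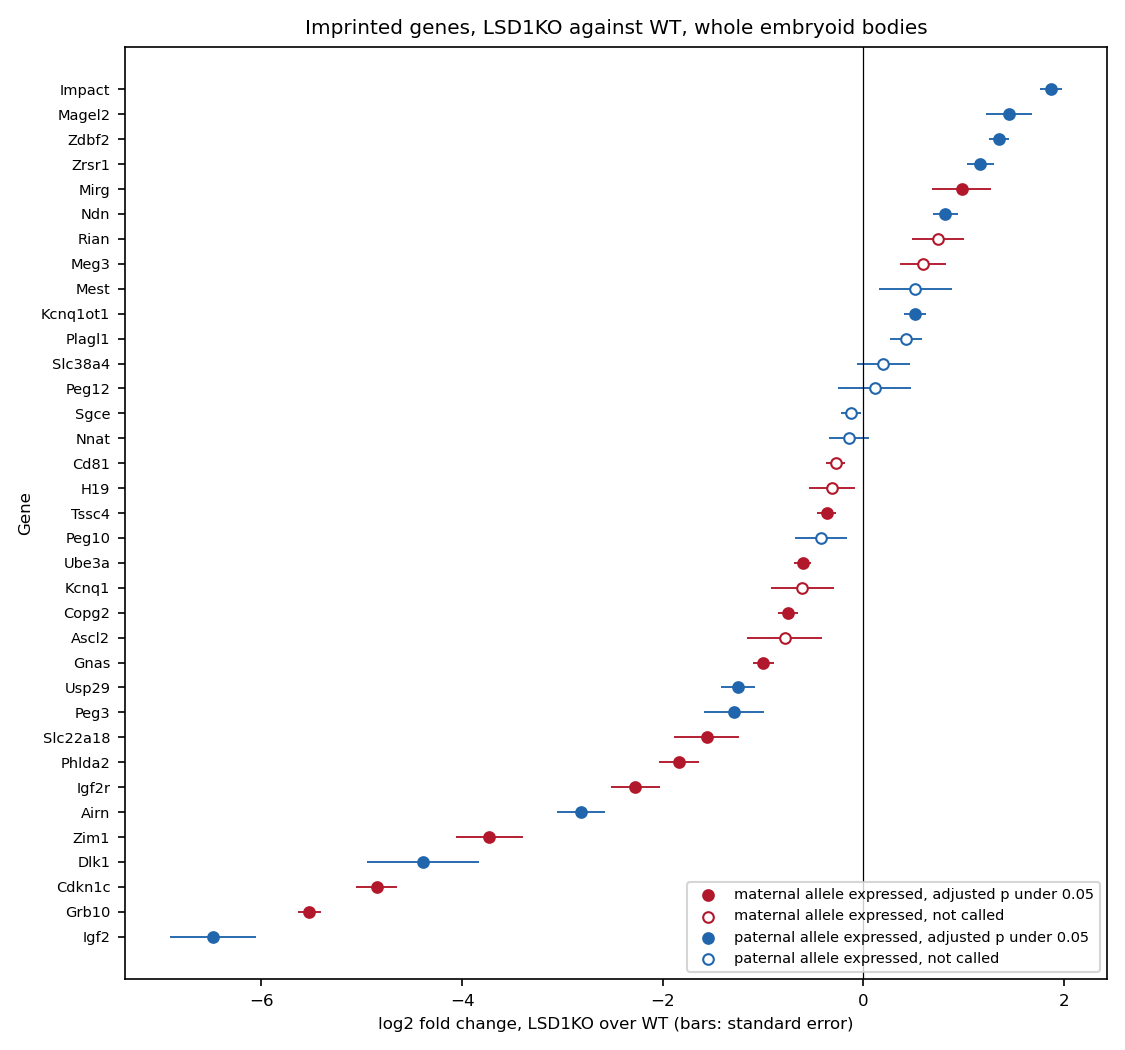
Log2 fold change of LSD1 KO over WT in whole EBs for the imprinted genes tested, ordered by value, with bars of 1 standard error from edgeR. Colours give the allele assigned to each gene, and filled points passed the test. The points run from −6.48 for Igf2 to 1.87 for Impact.

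The share of single cells with a UMI followed the summed levels when every cell was thinned to 1000 UMIs. An Igf2 UMI was seen in 25.6% and 13.7% of the cells of WT libraries, and in 0.355% and 0.318% of those of LSD1 KO libraries, against 72.2%, 53.5%, 3.43% and 4.01% before thinning. For Grb10 the thinned shares were 28.6% and 24.8% in WT and 1.03% and 0.812% in LSD1 KO. Impact ran the other way, with 5.48% and 4.90% in WT and 21.2% and 18.0% in LSD1 KO. RNA outside cells carried the same genes, since barcodes under 100 UMIs held Igf2 at 316 and 288 CPM in WT and at 1.95 and 1.22 CPM in LSD1 KO, and Impact at 57.0 and 45.3 CPM against 224 and 158 CPM. In the cells of the pluripotent gate described further on, an Igf2 UMI was seen in 14.7% and 16.9% of WT cells before thinning, at 12.1 and 25.2 CPM, well under the level of free RNA in the same libraries. No cell group of these EBs is known to lack these transcripts, so how much of these low shares came from free RNA was not tested.

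Non-coding RNAs of the Dlk1-Dio3 domain were detected together in single cells. After thinning to 2000 UMIs, a Rian UMI was seen in 47.3% and 32.2% of the WT cells that had a Meg3 UMI and in 10.95% and 8.45% of those that had none. In LSD1 KO cells the shares were 46.5% and 51.4% with Meg3 and 28.7% and 29.6% without. Usp29 was likewise found in 19.7% and 17.4% of WT cells with a Peg3 UMI and in 13.5% and 7.72% without. Igf2 differed less with H19, with 41.1% and 25.2% of WT cells that had an H19 UMI and 38.5% and 22.4% of those that had none. These shares are a description and pool all cell types of a library.

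Promoter windows are shown for Grb10, Igf2r with Airn, Peg3 and Zdbf2, picked as examples among the genes that passed the test in whole EBs and had a window. Others that passed and had a window, such as Gnas and Zrsr1, are not shown. Each window runs from 250 bases before to 50 bases after a RefSeq transcript start on GRCm38.p6, a later build than the mm9 of the counts. The letters run 5′ to 3′ along the gene's own strand, and capitals mark CG dinucleotides, the sites that DNA methylation uses.
Grb10 (chr11:12037371-12037670, minus strand): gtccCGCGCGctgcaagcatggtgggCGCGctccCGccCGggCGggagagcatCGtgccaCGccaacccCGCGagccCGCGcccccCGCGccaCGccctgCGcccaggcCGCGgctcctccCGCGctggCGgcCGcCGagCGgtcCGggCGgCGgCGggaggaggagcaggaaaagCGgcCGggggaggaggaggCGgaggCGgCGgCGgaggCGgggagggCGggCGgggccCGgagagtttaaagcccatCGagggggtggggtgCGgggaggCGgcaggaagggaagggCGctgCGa
Grb10 (chr11:12027922-12028221, minus strand): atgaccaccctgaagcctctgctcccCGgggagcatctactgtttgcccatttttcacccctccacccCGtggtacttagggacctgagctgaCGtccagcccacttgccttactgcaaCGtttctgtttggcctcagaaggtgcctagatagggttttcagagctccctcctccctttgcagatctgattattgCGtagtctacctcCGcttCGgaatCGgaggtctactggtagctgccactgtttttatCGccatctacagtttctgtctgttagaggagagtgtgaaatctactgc
Igf2r (chr17:12769657-12769956, minus strand): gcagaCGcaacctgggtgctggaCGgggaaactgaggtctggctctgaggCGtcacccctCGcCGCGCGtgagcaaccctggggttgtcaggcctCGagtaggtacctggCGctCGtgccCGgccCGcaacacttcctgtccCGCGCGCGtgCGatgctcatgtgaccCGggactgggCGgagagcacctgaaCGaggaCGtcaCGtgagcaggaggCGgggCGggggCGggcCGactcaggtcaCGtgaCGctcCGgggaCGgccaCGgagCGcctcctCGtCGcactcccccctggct
Airn (chr17:12741061-12741360, plus strand): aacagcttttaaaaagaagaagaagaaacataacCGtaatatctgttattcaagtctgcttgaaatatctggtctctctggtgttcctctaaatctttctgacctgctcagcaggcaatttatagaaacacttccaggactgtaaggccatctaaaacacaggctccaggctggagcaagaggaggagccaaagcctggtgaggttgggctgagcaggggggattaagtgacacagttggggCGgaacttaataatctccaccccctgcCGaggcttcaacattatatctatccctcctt
Peg3 (chr7:6730370-6730669, minus strand): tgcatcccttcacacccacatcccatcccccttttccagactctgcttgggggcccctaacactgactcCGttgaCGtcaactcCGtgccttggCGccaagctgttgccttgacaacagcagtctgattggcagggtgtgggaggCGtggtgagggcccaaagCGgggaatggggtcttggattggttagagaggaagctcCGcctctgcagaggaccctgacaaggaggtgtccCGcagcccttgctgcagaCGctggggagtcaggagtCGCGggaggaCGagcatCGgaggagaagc
Zdbf2 (chr1:63200108-63200407, plus strand): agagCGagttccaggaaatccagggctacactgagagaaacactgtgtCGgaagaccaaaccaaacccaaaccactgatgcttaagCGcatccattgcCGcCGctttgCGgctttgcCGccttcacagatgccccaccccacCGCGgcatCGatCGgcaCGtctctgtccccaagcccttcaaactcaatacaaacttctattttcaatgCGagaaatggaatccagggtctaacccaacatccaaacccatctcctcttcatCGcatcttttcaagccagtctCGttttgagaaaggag
Zdbf2 (chr1:63273019-63273318, plus strand): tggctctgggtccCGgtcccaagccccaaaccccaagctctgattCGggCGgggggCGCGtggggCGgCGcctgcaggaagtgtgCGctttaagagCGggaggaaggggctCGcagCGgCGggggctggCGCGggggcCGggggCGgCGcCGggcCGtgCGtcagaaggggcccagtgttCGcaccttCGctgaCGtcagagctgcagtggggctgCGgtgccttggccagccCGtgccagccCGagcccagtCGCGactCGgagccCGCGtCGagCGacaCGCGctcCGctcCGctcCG
Windows of the same gene differed widely in CG content, with 45 and 9 CG dinucleotides in the Grb10 windows and 15 and 38 in those of Zdbf2. The Igf2r window held 34 and that of Airn 3. The Peg3 window held 13 and shares 263 bases with the Usp29 window on the other strand. Across all 32851 RefSeq windows the median was 7 CG dinucleotides and the 90th percentile was 31. The 46 windows of the 30 imprinted genes with an entry had a median of 13 and a 90th percentile of 28.5. The motif TGCCGC, which the imprint-keeping zinc finger protein ZFP57 binds when methylated, was searched on both strands. It was found 3 times in 1 Zdbf2 window and 1 time in the CG-rich Grb10 window, and in 11 of the 46 windows (23.9%) against 11.6% of all windows. The motif itself holds a CG, and the shares were not matched for CG content. Overlapping windows were counted apart, among them those of Mest that start at 30737800 and 30737803, each with matches. A match is a run of letters and not a measured binding site, and no methylation was read here. Impact, H19, Sgce, Kcnq1, Peg10 and Cdkn1c had no window.

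Genes that write, keep or erase DNA methylation, or that bind or silence imprinted loci, were followed as a list of 24, of which 23 were tested, 9 rose and 5 fell, with a median log2 fold change of 0.07. The share called was 60.9%, against 44.2% of all genes (22.6% higher and 21.6% lower). Dnmt3l, the cofactor of the de novo methyltransferases, rose from 0.595 and 2.90 CPM to 11.8 and 18.96 CPM (3.13, adjusted p = 0.0158). Zfp42, a pluripotency marker that also binds imprinted loci, rose by 2.13, the de novo enzyme gene Dnmt3a by 1.44, the 5-methylcytosine oxidase gene Tet1 by 0.96 and Dnmt3b by 0.78. The falls were Tet2 (−1.52), Tet3 (−1.22), the histone H3K9 methyltransferase gene Ehmt2 (−0.74), Arid4b (−0.49) and Arid4a (−0.41). Dnmt1, the maintenance enzyme, was at 99.3 and 106 CPM in WT and at 99.1 and 104 CPM in LSD1 KO (−0.02, adjusted p = 0.877). Its partner Uhrf1 was at 79.6 and 83.6 CPM in WT and rose to 136 and 138 CPM (0.75, adjusted p = 0.00215). Zfp57 rose from 11.9 and 9.46 CPM to 17.7 and 17.5 CPM (0.72, adjusted p = 0.0131), and Trim28, which Zfp57 recruits, rose by 0.46 (adjusted p = 0.0128). Ctcf, the insulator protein gene, was at 0.07 (adjusted p = 0.618), Kdm1b, the LSD1 paralogue active at imprinted loci in oocytes, at 0.21 (adjusted p = 0.465), and Dppa3, which protects methylation in the zygote, at 0.28 (adjusted p = 0.821).

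Some of these genes moved otherwise within the marker gates described below. Within the pluripotent gate Zfp57 fell by 0.83 on the log2 scale (adjusted p = 0.0109) and Tet1 fell by 0.68 (adjusted p = 0.00576). Dnmt3l passed the test as lower there (−0.57, adjusted p = 0.0414), but its replicates overlapped between genotypes. It was at 37.8 and 64.5 CPM in WT and at 39.5 and 37.5 CPM in LSD1 KO. Trim28 did not pass the test there (−0.22, adjusted p = 0.329), while Dnmt3a (1.89), Dnmt3b (1.14) and Uhrf1 (0.78) rose. Within the primitive streak gate Dnmt3b fell by 0.74 on the log2 scale (adjusted p = 0.000256), Zfp57 (0.85, adjusted p = 0.126) and Tet1 (0.23, adjusted p = 0.247) did not pass, and Trim28 (0.45), Dnmt3a (0.81) and Uhrf1 (0.78) rose.

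Genes that neighbour the imprinted domains gave 4 rises and 9 falls among 31 tested of 33, with a median log2 fold change of −0.15. The share called, 41.9%, was near the 44.2% of all genes. These neighbours were not sorted by whether they are imprinted themselves, so the list is not a non-imprinted comparison. Gpr1, next to Zdbf2, rose from 0.980 and 1.05 CPM to 5.11 and 6.79 CPM (2.55, adjusted p = 0.00133), Atp10a of the Snrpn region rose by 1.66, and Begain (0.96) and Rtl1 (0.69) of the Dlk1-Dio3 region rose from low levels. Asb4, near Peg10, fell from 18.1 and 25.8 CPM to 2.39 and 1.41 CPM (−3.53, adjusted p = 0.00122), and Mrpl23, beyond H19, fell by 1.14 on the log2 scale. Tnnt3 fell by 2.73 on the log2 scale. Mas1, near Igf2r, fell by 2.62 from low levels, 1.04 and 0.706 CPM in WT to 0.0848 and 0.199 CPM in LSD1 KO. Slc22a3, also near Igf2r, was at 1.25 and 0.800 CPM in WT and near 0.03 CPM in LSD1 KO, too few counts for a firm fold. Of 17 genes of the IGF axis tested, out of 19, 4 rose and 9 fell, with a median of −0.36, and 76.5% were called against 44.2% of all genes. Igfbp5, an IGF-binding protein gene, fell from 148 and 103 CPM to 6.53 and 16.9 CPM (−3.42, adjusted p = 0.00403), Igf1 fell by 2.48, Igfbp6 by 1.31 and Insr and Igfbp4 each by 1.12 on the log2 scale. The rises were Igfbp3 (2.35), Igfbp2 (1.21), Lin28b (0.89) and Igfbp7 (0.83).

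To see the genes within cells of 1 kind, cells were gated on 8 marker genes per cell type. A cell entered a gate with a UMI of at least 3 of its markers and at least 2 more than of any other gate. The pluripotent gate held 34 and 225 cells of WT and 982 and 922 of LSD1 KO, and the primitive streak gate, set by T, Mixl1, Mesp1 and other genes of the first mesoderm, held 54 and 190 WT and 609 and 56 LSD1 KO cells. The cardiac mesoderm gate held 710 and 833 cells of WT and 0 of 5693 and 0 of 3045 LSD1 KO cells, which allows shares of up to 0.0527% and 0.0985%. The visceral endoderm gate held 132 and 95 cells of WT and 0 and 1 of LSD1 KO, and the neuron gate 18 and 31 WT and 532 and 139 LSD1 KO cells. Between 25.3% and 53.7% of kept cells had too few markers for any gate, and 12.9% to 37.2% lay between gates. The gated cells of the genotypes were not alike, since the 8 pluripotent markers summed to 2774 and 4202 CPM in the WT and 1965 and 2252 CPM in the LSD1 KO pluripotent gate, and the 8 neuron markers to 188 and 150 CPM against 474 and 410 CPM. Dppa3 was at 245 and 543 CPM in that gate in WT and at 47.4 and 48.3 CPM in LSD1 KO (−3.12, adjusted p = 2.8e-05). In the primitive streak gate the pluripotent markers summed to 115 and 119 CPM in WT and 935 and 1009.7 CPM in LSD1 KO. The part of these differences in what follows was not tested.

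Within the pluripotent gate the direction was mostly up. Of 33 imprinted genes tested 16 rose and 5 fell, with a median log2 fold change of 0.87 against 0.02 for all genes, where 24.6% of 13544 genes were called (12.8% higher and 11.8% lower). The 3 non-coding RNAs of the Dlk1-Dio3 domain rose together, Meg3 from 217 and 210.3 CPM to 829.5 and 808 CPM (1.94, adjusted p = 8.8e-06), Rian by 2.10 and Mirg by 2.27. Mest rose from 18.1 and 48.5 CPM to 232 and 260.1 CPM (2.60, adjusted p = 3.6e-05). H19 rose from 3.29 and 3.05 CPM to 15.7 and 19.1 CPM (2.50, adjusted p = 0.000758), with 2 and 8 UMIs behind the WT values. Impact rose from 54.2 and 46.6 CPM to 211 and 186 CPM (2.03, adjusted p = 1.4e-05), and Kcnq1ot1 from 105 and 102 CPM to 278 and 286 CPM (1.45, adjusted p = 3.7e-05). Free RNA of the LSD1 KO libraries held Meg3 at 888 and 1011 CPM and H19 at 32.7 and 35.8 CPM. That of the WT libraries held Meg3 at 771 and 248 CPM and H19 at 47.1 and 40.9 CPM. The part of free RNA in the rises was not tested. The other rises, from 0.87 to 1.87, were those of Zdbf2, Slc38a4, Sgce, Phlda2, Nnat, Peg10, Ndn, Plagl1 and Magel2. The WT values of Plagl1 rested on 0 and 7 UMIs and those of Magel2 on 0 and 8. Those of Phlda2 rested on 3 and 115 UMIs and lay far apart, at 4.93 and 43.9 CPM.

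The falls in the pluripotent gate were those of Igf2, Grb10, Cdkn1c, Copg2 and Igf2r. Igf2 went from 11.5 and 26.3 CPM to 2.19 and 1.12 CPM (−3.82, adjusted p = 0.000129). Grb10 went from 60.8 and 76.7 CPM to 14.4 and 11.8 CPM (−2.47, adjusted p = 1.1e-05). Cdkn1c, at 69.0 and 25.6 CPM in WT and 12.9 and 12.3 CPM in LSD1 KO, fell by 1.56 on the log2 scale (adjusted p = 0.00681). Copg2 went from 98.6 and 105 CPM to 48.5 and 55.3 CPM (−0.98, adjusted p = 0.000457). Free RNA of the WT libraries held Igf2 (316 and 288 CPM), Grb10 (305 and 242 CPM) and Cdkn1c (207 and 151 CPM) above their levels in this gate, against less than 10 CPM of each in LSD1 KO, and its part in these falls was not tested. Igf2r fell by 0.51 on the log2 scale (adjusted p = 0.0329) and was the weakest of these calls, with an adjusted p of 0.227 to 0.353 when any library but WT replicate 1 was left out. Airn was at 24.7 and 83.2 CPM in WT and at 55.4 and 58.1 CPM in LSD1 KO and did not pass the test (adjusted p = 0.547). It passed as higher without WT replicate 2 (1.24, adjusted p = 0.0083) and as lower without WT replicate 1 (−0.55, adjusted p = 0.00477), so its direction there rests on 1 library of 34 cells. The calls of Plagl1, Magel2 and Nnat in this gate were also lost in some fits that left out 1 library.

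Within the primitive streak gate 9 of 29 imprinted genes tested rose and 13 fell, with a median log2 fold change of −0.16 against 0.011 for all genes, where 29.3% of 10539 genes were called (15% higher and 14.3% lower). Grb10 went from 408 and 435 CPM to 1.63 and 2.69 CPM (−7.85, adjusted p = 3e-11), with 15 and 4 UMIs behind the LSD1 KO values. Igf2 went from 137 and 86.4 CPM to 3.37 and 0.673 CPM (−5.18, adjusted p = 1.1e-07), with 31 and 1 UMIs behind the LSD1 KO values. Cdkn1c fell by 3.32 on the log2 scale. Airn went from 309 and 207 CPM to 49.8 and 35.7 CPM (−2.48, adjusted p = 8.9e-07), and Igf2r from 101 and 87.5 CPM to 31.0 CPM in both LSD1 KO libraries (−1.59, adjusted p = 5.4e-06). H19 fell from 58.1 and 30.2 CPM to 12.1 CPM in both (−1.77, adjusted p = 0.000505). The other falls, of 1.05 or less on the log2 scale, were those of Phlda2, Ube3a, Nnat, Gnas, Usp29, Copg2 and Cd81.

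The rises in the primitive streak gate were led by Plagl1 (2.18), Impact (1.73) and Zdbf2 (1.68). Zdbf2 went from 81.1 and 81.8 CPM to 274 and 245 CPM (adjusted p = 8.1e-07), and Impact from 56.1 and 48.6 CPM to 170.4 and 171 CPM (adjusted p = 1.3e-06). Mirg, Ndn, Slc38a4, Rian, Mest and Meg3 rose by 1.42 to 0.45. Dlk1 could not be tested in this gate. Calls of Phlda2, Nnat, Meg3, Rian, Copg2, Slc38a4, Cd81, Mest and Usp29 in this gate were lost under at least 1 alternative. For Phlda2 the adjusted p was 0.0838 without WT replicate 2, and for Nnat it was 0.0868 without LSD1 KO replicate 1.

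Both gates called 17 imprinted genes, 14 in the same direction and 3, H19, Phlda2 and Nnat, in opposite directions. How many of all genes were called in both gates, or in opposite directions, was not counted. Among the 14, Igf2, Grb10, Cdkn1c, Igf2r and Copg2 were lower in LSD1 KO cells of both gates, and Impact, Zdbf2, Ndn, Plagl1, Mest, Meg3, Rian, Mirg and Slc38a4 were higher. The difference between the gates was tested as an interaction, which called 17 of 32 imprinted genes with a higher fold change in the pluripotent gate and 1, Zdbf2, with a lower one. Among all 11919 genes of that test 15.6% were called, 7.53% higher and 8.12% lower in the pluripotent gate. This test was added after the within-gate values were seen, and its values per gene stand in the closing section.

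**Figure D3:**
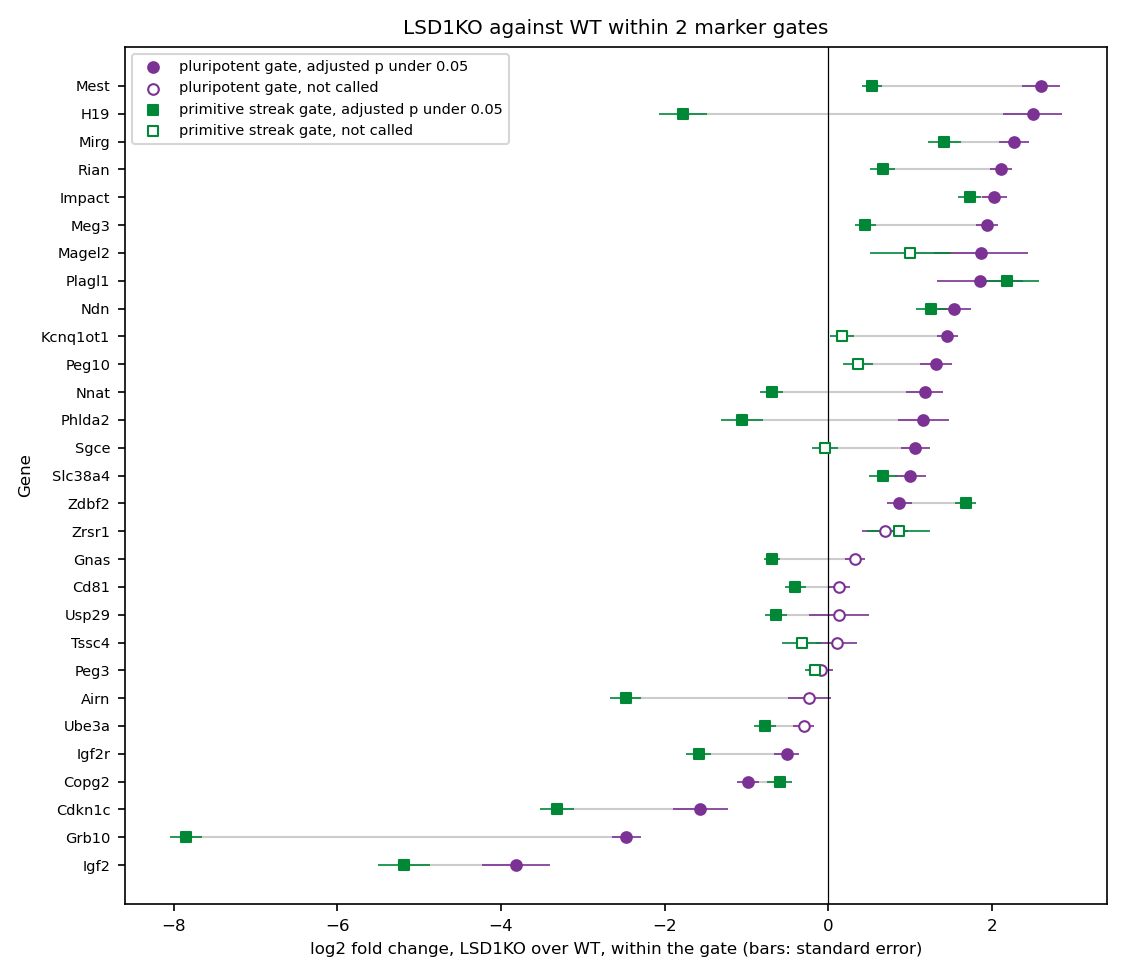
Log2 fold change of LSD1 KO over WT within the pluripotent gate and within the primitive streak gate, with bars of 1 standard error, for imprinted genes tested in both gates and ordered by the value in the pluripotent gate. Filled points passed the test. H19 lies at 2.50 in the pluripotent gate and at −1.77 in the primitive streak gate, while Grb10 lies below 0 in both.

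In WT EBs the imprinted genes differed between cell types. Cardiac mesoderm and visceral endoderm cells of the same libraries were compared with the library as a block, which called 11 of 33 imprinted genes higher and 7 lower in cardiac mesoderm, with a median log2 difference of 0.04. Among all 12108 genes 36% were called, 17.5% higher and 18.5% lower. Mest was at 5.78 and 2.21 CPM in visceral endoderm and at 849.7 and 392 CPM in cardiac mesoderm, a log2 difference of 7.23 (adjusted p = 8.8e-18). Nnat was at 6.86 and 13.2 CPM against 86.8 and 32.7 CPM (2.98, adjusted p = 1e-07), and Plagl1 was higher by 4.73. Igf2 was at 298 and 131 CPM in visceral endoderm and at 478 and 249.5 CPM in cardiac mesoderm (0.78, adjusted p = 6.4e-06), a call that was lost without the library block (adjusted p = 0.195). The Dlk1-Dio3 non-coding RNAs ran the other way, with Meg3 at 1628 and 1638 CPM in visceral endoderm and 724 and 409 CPM in cardiac mesoderm (−1.58, adjusted p = 5.4e-10), Rian at −1.96 and Mirg at −2.06. Cdkn1c was at 626 and 642 CPM against 293 and 221 CPM (−1.31, adjusted p = 1.5e-09). The gates compared here were nearly empty in LSD1 KO EBs.

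Across the 7 gates with enough WT cells, 29 imprinted genes reached 10 CPM in the gate where they were highest. That gate was visceral endoderm for 11 genes, cardiac mesoderm for 7, endothelium for 4, paraxial mesenchyme for 3 and the pluripotent and primitive streak gates for 2 each. For 15 of the 29 the lower WT library of the top gate lay above the higher WT library of the next gate. Neither tally was made over all genes, so whether imprinted genes differ from other genes in this was not tested. In CPM of plain gate totals, Meg3 averaged 1589 in visceral endoderm and 215 in the pluripotent gate, and Dlk1 averaged 176 in visceral endoderm and 3.87 in the pluripotent gate. Grb10 averaged 394 in the primitive streak gate and 68.6 in the pluripotent gate. Nnat averaged 251 in paraxial mesenchyme and 9.64 in visceral endoderm. Cd81, a surface protein gene, was highest in endothelium at 540.2. Among these 7 gates Zdbf2 and Copg2 were highest in the pluripotent gate, at 146 and 102. The neuron and neural progenitor gates, with too few cells in WT replicate 1, were not among the 7. In WT replicate 2 they held Zdbf2 at 193 and 143 CPM, against 116 CPM in the pluripotent gate. Copg2 was at 96.6 and 122 CPM there, against 100.3 CPM in the pluripotent gate. Igf2 averaged 376 in cardiac mesoderm and 359.7 in endothelium, with libraries that overlapped between those gates, and 18.6 in the pluripotent gate.

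**Figure D4:**
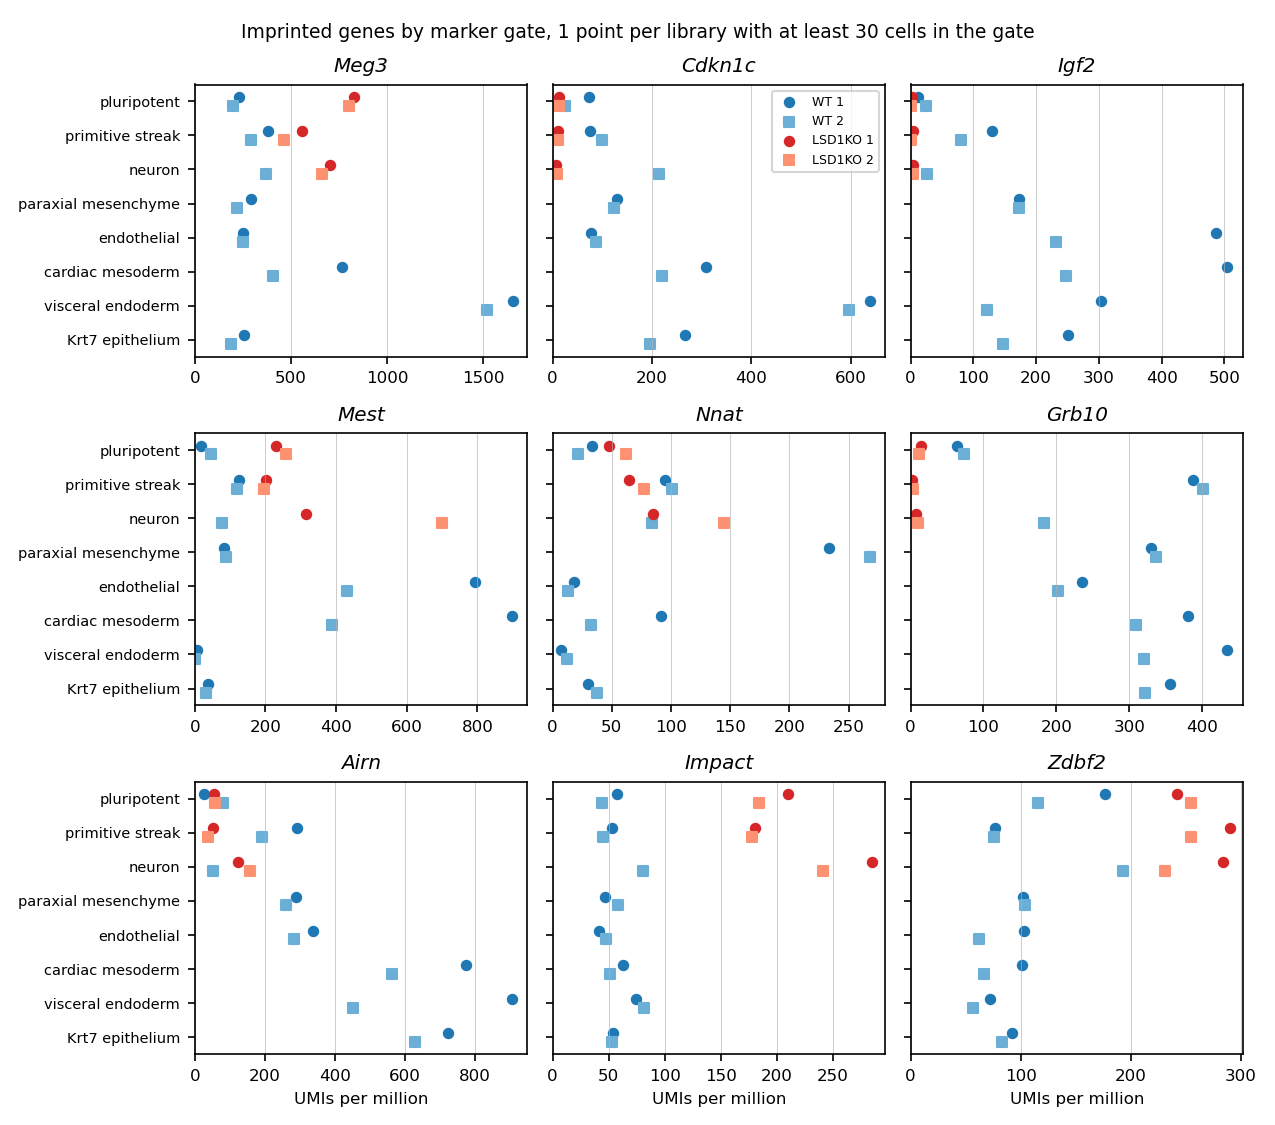
Levels of Meg3, Cdkn1c, Igf2, Mest, Nnat, Grb10, Airn, Impact and Zdbf2 by marker gate (vertical axis), in CPM of plain gate totals on a linear axis from 0, with 1 point per library that had at least 30 cells in the gate. In WT EBs Mest averages 3.97 CPM in visceral endoderm and 643 CPM in cardiac mesoderm, and the LSD1 KO points of Impact lie above the WT points in each gate that holds both genotypes.

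In LSD1 KO EBs the pluripotent and neuron gates held enough cells to compare. Of 33 imprinted genes tested 6 were higher and 15 lower in the pluripotent gate, with a median log2 difference of −0.17, where 26% of all 13987 genes were called (12.7% higher and 13.2% lower). Peg3 was at 393 and 344 CPM in the neuron gate and at 154 and 117 CPM in the pluripotent gate (−1.45, adjusted p = 1e-09). H19 was at 48.3 and 76.4 CPM in the neuron gate and at 16.0 and 19.6 CPM in the pluripotent gate (−1.79, adjusted p = 3.3e-08). Airn (−1.23), Peg10 (−1.32), Usp29 (−1.20) and Nnat (−0.97) were also lower in the pluripotent gate. Phlda2 was at 40.8 and 38.2 CPM in the neuron gate and at 74.8 and 81.7 CPM in the pluripotent gate (0.97, adjusted p = 3.3e-06), and Cdkn1c (0.86), Grb10 (0.63), Mirg (0.35), Meg3 (0.32) and Rian (0.25) were higher there too. Without the library block the calls of Nnat, Grb10, Mirg and Rian among these were lost. Ube3a did not pass the test, at 122 and 127 CPM in the neuron gate and 110.4 and 115 CPM in the pluripotent gate (−0.14, adjusted p = 0.183).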

How the data were processed

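Counts of UMIs per gene and barcode were deposited as raw matrices, 1 per library, which the authors made with Cell Ranger 7.1.0 from 10x 3′ reads; mm9 is named in the submitters' processing notes. That version counts intronic reads by default and keeps the strand. From these, barcodes of 500 UMIs or more over 500 genes or more were summed per library, or per library and gate where a gate held at least 30 cells. Genes were filtered with filterByExpr and tested with edgeR 4.0.16 (TMM, quasi-likelihood) in R 4.3.3, without the replicate number; contrasts between gates of 1 genotype had the library as a block. The members, gene lists and gates were chosen with earlier results of these data known. Genes were named by rule: all members, with values in each library from 10 CPM in either genotype's mean (30 of 36), and of each list the 5 largest rises and 5 largest falls that passed the test, plus Dnmt1, Uhrf1, Zfp57, Trim28, Ctcf, Dppa3, Kdm1b and Kdm1a. No doublets were called; leaving out the 5% of barcodes with the most UMIs was an alternative. On simulated counts of 16720 genes, the whole EB test called 72 of 100 genes given a fold of 2, 98 of 100 given a fold of 4 and 3 of 16520 left unchanged. The simulated spread followed the trend fitted to these same data, and far fewer genes were changed than the 7500 called in whole EBs. These counts therefore do not give the error rate of the real comparison. Positions are from GENCODE M1 on NCBIM37 (mm9). Shares cover counting only.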

Additional observations from a re-analysis of the deposited data

Results flagged for a closer look

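The fold change of LSD1 KO over WT differed between the pluripotent and the primitive streak gate for 18 imprinted genes, by the interaction term of edgeR's quasi-likelihood fit, a test added after the within-gate values were seen. Each value is the term, from a joint fit of both gates, for the log2 fold change in the pluripotent gate minus that in the primitive streak gate. It differs somewhat from a subtraction of the values fitted within each gate alone. H19 (3.98, adjusted p = 1.9e-07), Phlda2 (2.40, adjusted p = 2.3e-06) and Nnat (1.80, adjusted p = 1.7e-06) rose in the pluripotent gate and fell in the primitive streak gate. Grb10 (5.51, adjusted p = 5.5e-13), Cdkn1c (1.79), Igf2 (1.67) and Igf2r (1.02) fell in both, and less in the pluripotent gate. Mest (2.06), Meg3 (1.45), Rian (1.35) and Mirg (0.88) rose in both, and more in the pluripotent gate. Kcnq1ot1 (1.19), Peg10 (0.95) and Sgce (1.09) rose in the pluripotent gate and did not pass the test in the other. Airn (2.14), Gnas (1.0) and Cd81 (0.50) fell in the primitive streak gate and did not pass the test in the pluripotent gate. Zdbf2 (−0.82) rose in both, and more in the primitive streak gate. The calls of Igf2, Cd81, Cdkn1c, Peg10, Sgce, Mirg and Zdbf2 were lost under at least 1 alternative (for Cdkn1c, adjusted p = 0.383 without WT replicate 2), and the others held under library totals alone, at least 2 of 8 markers and leaving out each library. No difference was called for Peg3 (0.05, adjusted p = 0.837), Impact (0.28, adjusted p = 0.396) or Ndn (0.27, adjusted p = 0.629). WT replicate 1 had 34 cells in the pluripotent gate, with 2 H19 UMIs and 3 Phlda2 UMIs among them. The gated cells differed between genotypes in marker levels, as given above.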

How the results depend on the processing

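With 1 library left out, genes called ranged from 4999 to 6666 in whole EBs (7500 with all), members higher from 5 to 11 and lower from 12 to 15. In the pluripotent gate the ranges were 1372 to 4174 genes (3338 with all), 14 to 17 higher and 4 to 6 lower, in the primitive streak gate 1993 to 3121 (3092), 6 to 11 and 10 to 12 (13), and for the interaction 795 to 2124 (1865), 13 to 18 and 0 to 1. Library totals alone gave 2 members lower in the interaction. Without the library block, cardiac mesoderm against visceral endoderm called 4 members lower, and pluripotent against neuron called 1694 genes, with 3 members higher and 9 lower. In those 2 comparisons the block left no residual degrees of freedom for leaving a library out. Gating on cells thinned to 2000 UMIs, and the pluripotent gate at 4 markers or more, gave no value because too few cells remained, so the part of depth in gate membership was not tested.

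Same-numbered replicates share only a number (correlation of their deviations 0.157 over 16953 genes). With the replicate block, whole EBs gave 8097 genes, 9 members higher and 17 lower, the pluripotent gate 3242, 16 and 4, and the primitive streak gate 2965, 10 and 13. It gave calls to Peg10, Cd81, Plagl1 and Rian in whole EBs (adjusted p = 0.0128, 0.0433, 0.0363 and 0.0493) and to Magel2 in the primitive streak gate, and took that of Igf2r in the pluripotent gate (adjusted p = 0.0529). DESeq2 called 7384 genes in whole EBs.

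No value that passed its test changed sign. Of the values of a gene in a comparison that did not pass, 21 changed sign under some setting, and the cause was not tested. Library totals alone gave Sgce 0.0018 in whole EBs, Peg3 0.015 and Sgce 0.14 in the primitive streak gate (Sgce 0.0056 with the replicate block), Peg3 −0.10 in the interaction, Airn 0.035 between WT gates and Zdbf2 −0.053 between LSD1 KO gates (−0.0052 with at least 4 markers). With 1 library left out, log2 values ran in whole EBs from −0.60 to 0.047 for H19, −0.54 to 0.56 for Peg12, −0.44 to 0.11 for Nnat and −0.16 to 0.68 for Slc38a4. In the pluripotent gate they ran from −2.50 to 6.91 for Ascl2, −0.47 to 0.35 for Tssc4, −0.30 to 0.089 for Peg3, −0.22 to 3.65 for Usp29, −0.23 to 0.62 for Dlk1 and −0.55 to 1.24 for Airn. In the primitive streak gate they ran from −0.11 to 0.41 for Kcnq1ot1, −0.41 to 0.034 for Peg3, −0.081 to 0.61 for Peg10 and −0.15 to 0.18 for Sgce, and in the interaction from −0.0011 to 0.40 for Ndn, −0.16 to 7.76 for Peg12 and −0.76 to 7.06 for Plagl1.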
